A study of Homo sapiens with 4 samples.

Results

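The untreated culture of HuES6, a human embryonic stem cell line, was described from its single bead array, 1 of the 4 arrays of the series. Probes for 20046 named genes were read on it, and 10377 of these genes (51.8%) were detected. This share, the reference used below, also covers non-coding genes and pseudogenes. Of the 17777 protein-coding genes among them 9993 (56.2%) were detected. A gene counted as detected when at least 1 of its named probes had a detection p below 0.01, where the detection p is the share of the array's negative control beads that were as bright as the probe or brighter. All 4 cultures were plated as single cells on Matrigel, a basement membrane extract, and moved the next day to a serum-replacement medium that held FGF2 at 20 ng/ml together with Activin A at 5 ng/ml. A day later 3 of them received 20 ng/ml BMP4, or CHIR99021 at 5 µM, which blocks the kinase GSK3 and so turns on β-catenin signalling, or both agents, for 4 h, and the untreated culture was kept in FGF2 and Activin A alone. Before replating, the cells had been kept in medium conditioned by mouse embryonic fibroblasts. Each condition was hybridised once, so no comparison below carries a test between conditions, and an intensity has no replicate error.

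Human embryonic stem cells resemble the epiblast of the embryo shortly after implantation, a state called primed. POU5F1 (OCT4), SOX2 and NANOG are the transcription factors that hold them there. Activin or Nodal signals through SMAD2 and SMAD3 to keep NANOG expressed, FGF2 signals through the ERK kinases, and BMP and WNT ligands are among the signals that lead the cells out of this state towards mesoderm, endoderm and extraembryonic fates. Antagonists such as LEFTY, GREM1 and SFRP proteins are secreted into the same medium and limit these ligands.

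The 5 markers of the undifferentiated state were all detected. The raw intensity was 3076 for POU5F1, 1490 for L1TD1 (an RNA-binding protein of pluripotent cells), 1417 for DNMT3B (a de novo DNA methyltransferase), 1020 for NANOG and 677 for SOX2, each with a detection p of 0. Among the intensities of the 10377 detected genes these values lay at percentiles 96.1, 91.2, 90.6, 87.0 and 80.2 in that order. The label of the culture and its markers therefore went together. The value depended on the probe: the second POU5F1 probe read 103, just inside detection, the second NANOG probe 120, and the 5 DNMT3B probes 1417, 933, 332, 116 and 97.4. POU5F1 and NANOG also have near-identical copies elsewhere in the genome, POU5F1B and NANOGP8, whose transcripts an array probe may not tell apart.

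**Figure D1:**
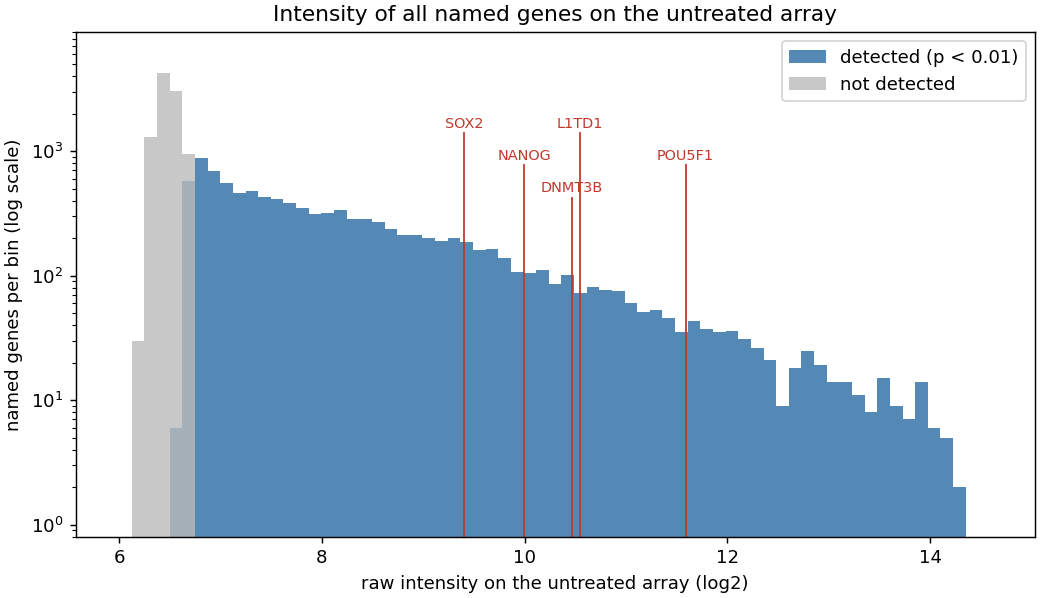
Histogram of the raw intensity (log2, x axis) of all named genes on the untreated array, with the number of genes per bin on a log scale, split into genes detected and not detected at p below 0.01. Red lines mark the 5 markers, which all lie well to the right of the point near 103 where the calls change over.

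The promoter of NANOG carries an element that POU5F1 and SOX2 are known to bind together. It is printed here, 5′ to 3′, as the 250 bases before the transcription start (chr12:7789152-7789401, plus strand, RefSeq, GRCh38.p14), with the joint octamer and SOX element in capitals.
NANOG: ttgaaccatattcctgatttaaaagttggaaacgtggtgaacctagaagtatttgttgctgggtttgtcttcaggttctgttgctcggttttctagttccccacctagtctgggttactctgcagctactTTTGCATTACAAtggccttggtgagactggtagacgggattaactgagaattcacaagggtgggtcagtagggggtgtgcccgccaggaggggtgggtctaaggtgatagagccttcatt
The element begins 120 bases before the start. The letters searched were TTTGCATNACAA on both strands of the 300-base windows of RefSeq promoters, and 11 of 35116 windows (0.0313%) held them. Windows of detected genes held them in 5 of 12408 cases (0.0403%) and windows of genes not detected in 3 of 8679 (0.0346%). The octamer letters TTTGCAT alone, which lie within the longer element, were in 3.01% of the windows of detected genes and 4.90% of those of genes not detected, and in 4.46% of all windows. The TATA letters TATAAA were in 5.98%, 14.3% and 11.5% of the same 3 sets. A match is a description of the letters and not evidence of binding.

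Promoters of 4 more genes are shown because detection and the density of CpG dinucleotides went together over all genes, and because these 4 genes lie on the other side of that relation. Capitals mark each CpG in the 250 bases before the start (GRCh38.p14). DPPA4 (chr3:109337547-109337796, minus strand) and MYL7 (chr7:44141333-44141582, minus strand) were detected. TBXT (chr6:166168656-166168905, minus strand) and EOMES (chr3:27722324-27722573, minus strand) were not, though EOMES was at the edge, at 102 with a detection p of 0.017.
DPPA4: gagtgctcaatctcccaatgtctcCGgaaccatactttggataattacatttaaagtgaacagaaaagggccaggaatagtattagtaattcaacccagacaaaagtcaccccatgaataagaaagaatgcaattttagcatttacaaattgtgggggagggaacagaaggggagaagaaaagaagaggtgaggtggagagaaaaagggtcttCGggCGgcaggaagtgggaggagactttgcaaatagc
MYL7: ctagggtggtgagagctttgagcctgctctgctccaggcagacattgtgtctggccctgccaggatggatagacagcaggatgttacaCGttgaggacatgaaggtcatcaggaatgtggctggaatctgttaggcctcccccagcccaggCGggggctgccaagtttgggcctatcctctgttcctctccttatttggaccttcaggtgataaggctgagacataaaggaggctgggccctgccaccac
TBXT: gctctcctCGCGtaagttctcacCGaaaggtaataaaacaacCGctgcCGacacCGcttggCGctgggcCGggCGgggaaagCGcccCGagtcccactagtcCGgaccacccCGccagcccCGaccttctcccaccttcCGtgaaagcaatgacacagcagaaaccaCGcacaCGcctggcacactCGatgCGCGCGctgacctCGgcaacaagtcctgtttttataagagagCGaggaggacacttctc
EOMES: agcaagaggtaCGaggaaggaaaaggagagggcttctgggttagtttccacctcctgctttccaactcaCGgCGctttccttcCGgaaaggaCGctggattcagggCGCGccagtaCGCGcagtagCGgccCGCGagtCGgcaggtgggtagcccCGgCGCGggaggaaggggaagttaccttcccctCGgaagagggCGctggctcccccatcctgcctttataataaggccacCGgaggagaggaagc
DPPA4, a nuclear factor of pluripotent cells read at 2173, has 3 CpG in this stretch, and MYL7, an atrial myosin light chain read at 2108, has 2. TBXT (Brachyury) and EOMES, T-box factors of the primitive streak, have 23 and 19. The observed over expected CpG ratios of the printed stretches were 0.285 for DPPA4, 0.101 for MYL7, 1.03 for TBXT and 0.80 for EOMES.

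Of 34 named genes of core and primed pluripotency, 30 were detected (88.2%, against 51.8% of all named genes). Their median raw intensity was 640, against 232 over all detected genes, and 17 of the 30 lay in the top 25% of detected intensities. PODXL, a sialomucin of the stem cell surface, read 7503. GAL, the galanin neuropeptide, read 5110, and LIN28A, the RNA-binding inhibitor of let-7 maturation, read 3378. ZSCAN10 read 1271, ZIC2 read 1128, and SALL4, a zinc finger partner of POU5F1, read 789. The ETS factors ETV4 and ETV5, targets of FGF signalling, read 723 and 598. The dim end of the list held factors with well-known roles: PRDM14 read 197, ZFP42 (REX1) 179, UTF1 162, FOXD3 135, OTX2 134 at 1 of its 3 probes, and FOXH1, the DNA-binding partner of SMAD2 in the Nodal response, 110. DPPA2, TERT, HESX1 and GDF3 were not detected.

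Factors of the earlier, naive state gave 5 of 19 detected (26.3%, against 51.8% of all named genes). TFAP2C read 489 and NLRP7 read 342, and the other 3, KLF2, TFCP2L1 and KLF4, lay between 108 and 127. KLF17, KLF5, ESRRB, DPPA3, DPPA5, NR5A2 and TBX3 were among the 14 not detected. ALPG, SUSD2 and ESRRB were at the edge, with detection p between 0.01 and 0.05.

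**Figure D2:**
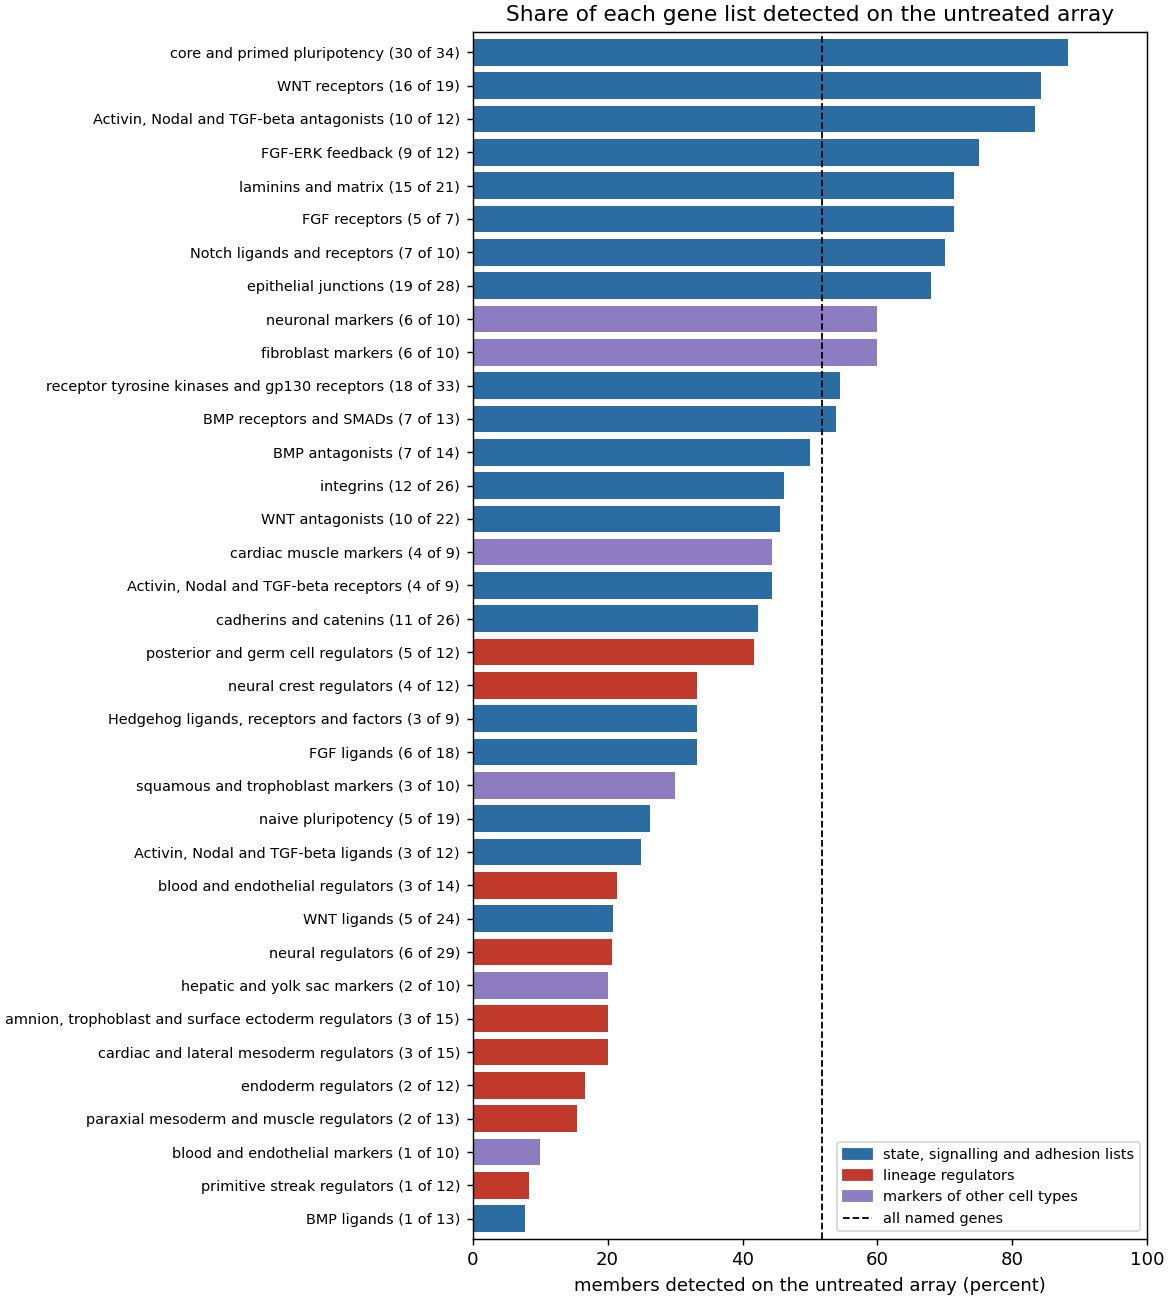
Bars give the percent of named members of each gene list detected on the untreated array at p below 0.01, with the counts beside each list name, and the dashed line marks the 51.8% of all named genes. Core pluripotency genes stand at 88.2% at the top, and primitive streak regulators (8.33%) and BMP ligands (7.69%) at the bottom.

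For the Activin, Nodal and TGF-β pathway, ligand transcripts were few and inhibitor transcripts many. Of 12 ligands 3 were detected: INHBE read 248, NODAL 219 and GDF11 116. Activin itself was supplied with the medium, and the transcript of its βA subunit, INHBA, was not detected. Of 9 receptors and co-receptors 4 were detected, namely the type I receptor ACVR1B (296), TGFBR2 (290), TGFBR3 (133) and the type II receptor ACVR2A (119). TGFBR1, ACVR1C and ACVR2B were not detected at their named probes, and the Nodal co-receptor TDGF1 had no named probe here. Of 12 antagonists 10 were detected (83.3%, against 51.8% of all named genes). The secreted Nodal inhibitors LEFTY1 and LEFTY2 read 3829 and 1483. TGIF1, a co-repressor of SMADs, read 1655 and BAMBI, a decoy receptor, 1378. FST (follistatin), which binds Activin, read 792, SMAD7 read 346 and CER1 274.

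In the BMP pathway ligands were again few, and antagonists were detected at about the share of all named genes. Of 13 named BMP and GDF ligands only BMP7 was detected (7.69%), at 152. BMP2 (103), BMP4 (100), BMP5 (97.5) and BMP6 (103) were at the edge, with detection p of 0.013, 0.021, 0.040 and 0.012. Of 13 receptors, co-receptors and SMADs 7 were detected, in a list that also holds SMAD2 and SMAD3 of the Activin and Nodal branch. The common partner SMAD4 read 529, SMAD5 523, the type I receptor ACVR1 361, SMAD3 215 and the type II receptor BMPR2 127, while BMPR1A had no named probe. SMAD1 (102) and SMAD2 (102) stayed just outside detection, with p of 0.017 and 0.013. Of 14 antagonists 7 were detected (50%, against 51.8% of all named genes): GREM1 (Gremlin) read 1101, FSTL1 967, TWSG1 913 and NBL1 579, all in the top 25% of detected intensities, and SMURF1, SMAD6 and CHRDL2 read between 107 and 123. NOG and CHRD, the classical BMP antagonists of the organiser, were not detected. ID1 and ID3, direct BMP target genes that encode inhibitors of helix-loop-helix factors, were detected in the absence of added BMP, at 790 and 789. ID2 read 106.

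Of 18 FGF ligands 6 were detected. FGF2, the factor also present in the medium, read 377, at percentile 66.5. FGF1, FGF18, FGF9 and FGF23 lay between 109 and 128. The chosen probe of FGF20 read 100 and was not itself detected, and its other, detected probe read 107. FGF4, FGF8, FGF5, FGF17 and FGF19 were not detected. Of 7 FGF receptor and co-receptor genes 5 were detected, FGFR3 at 774, FGFRL1 at 465 and FGFR4 at 206. FGFR1 was not detected at either of its probes (96.0 and 86.7, with detection p of 0.062 and 0.488), nor was FGFR2. Feedback genes of FGF and ERK signalling gave 9 of 12 detected (75.0%, against 51.8% of all named genes). With every probe of a gene required, their count was 5, and that of all named genes fell from 10377 to 7964. SPRY4 read 1165, SPRED1 846, DUSP5 759, SPRY2 559 and DUSP6, a phosphatase of ERK, 545.

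WNT ligands and R-spondins gave 5 of 24 detected (20.8%), all dim: WNT3 156, WNT7A 149, WNT5A 126, WNT10B 124 and WNT5B 105. WNT3A, WNT8A and the 4 R-spondins were not detected. WNT receptors gave 16 of 19 (84.2%, against 51.8% of all named genes). The receptor count was 11 at p of 0 and 13 for detection on all 4 arrays. FZD2 read 1036 and FZD7 600, 9 of the 10 Frizzled genes were detected, and only FZD8, LRP6 and LGR5 of the list were not. The co-receptor LRP5 read 327, and LRP6 101 with a detection p of 0.018. Of 22 antagonists and feedback genes 10 were detected: SFRP2, a secreted WNT-binding protein, read 1223, AXIN1 671, DKK3 590, AXIN2 335, SFRP1 300 and DACT1 278. DKK1 (99.6, detection p of 0.025) was just outside detection, and DKK2, DKK4, WIF1 and NOTUM were not detected.

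Taking the 4 pathways as one set of ligands, 15 of 67 named ligand genes were detected (22.4%, against 51.8% of all named genes). FGF2, at 377, was the brightest of the 15, and none lay in the top 25% of detected intensities. Receptors and transducers, including other receptor kinases, gave 50 of 81 (61.7%), 7 of them in that top 25%. Antagonists and feedback genes gave 36 of 60 (60.0%), 17 of them in that top 25%. Both shares are near that of all named genes. The ligand count rests on dim values: 23 ligands were detected at p below 0.05, and 9 at p of 0.

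**Figure D3:**
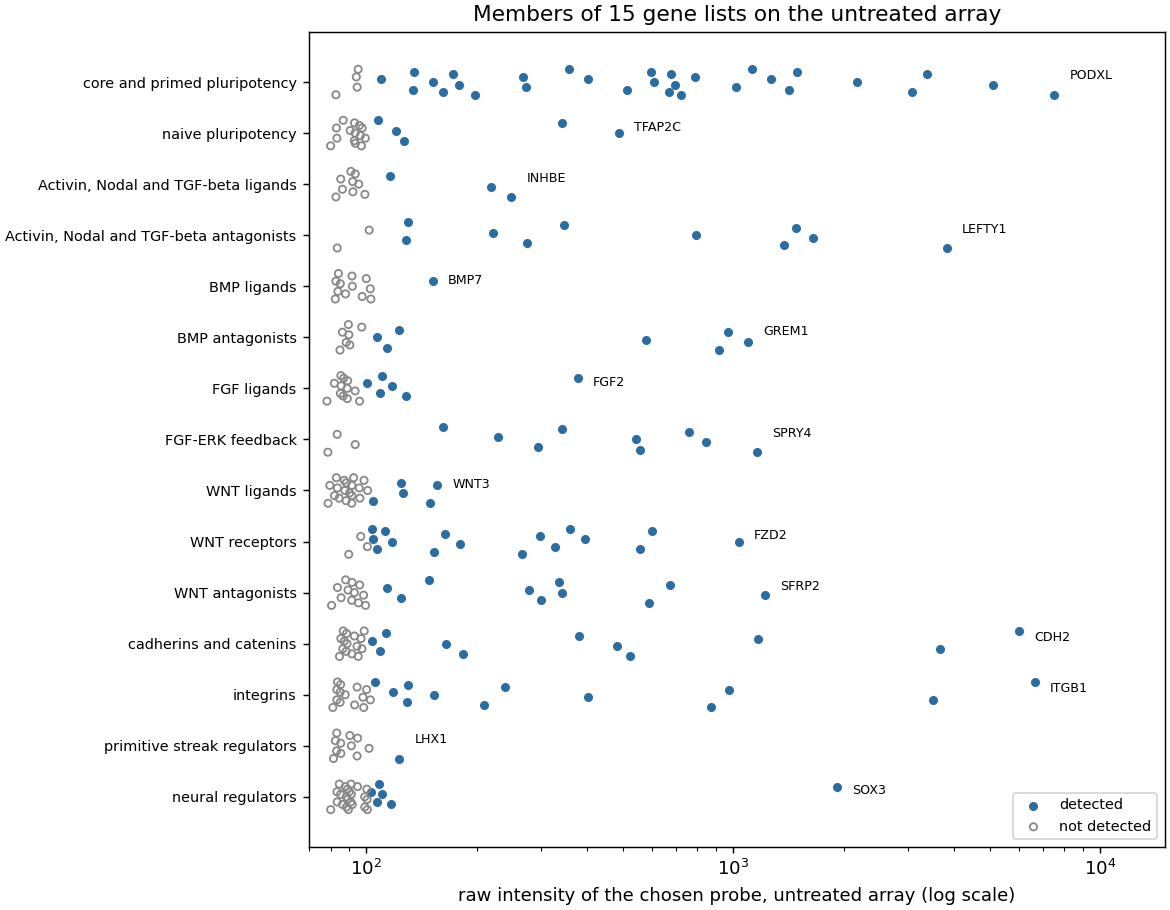
Each point is the raw intensity (log scale) of a named gene on the untreated array, in 15 gene lists, filled where the gene was detected and open where it was not, with the brightest member of each list named. The brightest ligand is FGF2 (377), whereas LEFTY1 (3829), SFRP2 (1223), SPRY4 (1165) and GREM1 (1101) lead the antagonist and feedback lists.

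Among other receptors, 18 of 33 receptor tyrosine kinases and gp130 family receptors were detected. ERBB2 read 1064 at 1 of its 3 probes, EPHA1 886, AXL 781, DDR1 500 and EPHB4 453. IGF1R, the receptor for insulin-like growth factors, read 180, and INSR, KIT, PDGFRA and LIFR, the LIF receptor, were not detected. IL6ST, the gp130 chain shared by LIF and IL-6 receptors, read 131 at 1 of 3 probes, and STAT3 525. Of 10 Notch ligands and receptors 7 were detected, led by NOTCH1 (566) and NOTCH3 (493). Of 9 named Hedgehog genes 3 were detected, SMO (228), GLI2 (167) and GLI3 (115), and the ligands SHH, IHH and DHH were not.

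Adhesion and matrix genes gave 57 of 101 detected (56.4%), close to the share of all named genes, with a median of 380. The cadherin and catenin list gave 11 of 26. CDH2 (N-cadherin) read 6013, CDH1 (E-cadherin) 484 and CDH3 (P-cadherin) 380. These probes differ in how they hybridise, so the order of their intensities is not the order of their transcripts. CTNNA1, which links cadherins to actin, read 3660, JUP (plakoglobin) 1168 and CTNNB1 (β-catenin) 524, where 2 of its 7 probes were detected. Of 28 epithelial junction genes 19 were detected: the gap junction gene GJA1 read 3048, EPCAM 2970, the desmosomal cadherin DSG2 1822, CLDN6 804 and TJP1 (ZO-1) 713. OCLN was not detected. VIM, the mesenchymal intermediate filament, was among the 10 brightest genes at 17951, and the simple-epithelium keratins KRT19, KRT8 and KRT18 read 1526, 1403 and 243.

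Integrins gave 12 of 26. ITGB1, the common β chain, read 6634, ITGB5 3503, ITGA3 973, ITGAV 869 and ITGA6, a laminin receptor chain, 210 at 1 of its 3 probes. Matrix genes gave 15 of 21 (71.4%, against 51.8% of all named genes). SPP1 (osteopontin) read 8125. The type IV collagen chain COL4A1 read 3773, and the laminin chains LAMA5, LAMC1 and LAMB1 read 3367, 2059 and 474. FN1 (fibronectin) was not detected at any of its 3 probes, of which the brightest read 100 with a detection p of 0.019. Such a call belongs to the probes and not to the gene.

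The 9 lists of lineage regulators gave 28 of 125 detected (22.4%, against 51.8% of all named genes). The detected members had a median intensity of 120, and 18 of the 28 lay in the bottom 25% of detected intensities. By list, primitive streak regulators gave 1 of 12 (LHX1, 123), endoderm 2 of 12 (FOXA3 251 and FOXA1 179), paraxial mesoderm and muscle 2 of 13, cardiac and lateral mesoderm 3 of 15 (HEY2 270), amnion, trophoblast and surface ectoderm 3 of 15, neural 6 of 29, blood and endothelial 3 of 14, neural crest 4 of 12, and posterior and germ cell 5 of 12. TBXT, EOMES, MIXL1, GSC, MESP1, TBX6 and FOXA2 of the streak were not detected, nor were SOX17, GATA4, GATA6 and HHEX of the endoderm, PAX6, SOX1 and OLIG2 of the neural list, NKX2-5, TBX5 and HAND1 of the heart, TAL1, RUNX1 and SPI1 of blood, or CDX2, GCM1 and ELF5 of the trophoblast. The exceptions with clear signal were few. SOX3, a neural and epiblast relative of SOX2, read 1922. TEAD4 read 1209, SOX15 522, TFAP2C 489 and TWIST1 342. SOX3, SOX15 and TFAP2C are also known from pluripotent or germ cells. The count moved with the threshold, to 43 at p below 0.05 and 14 at p of 0. EOMES (102, detection p of 0.017) was among the regulators at the edge.

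Some transcription factor families were almost without detected members. Of 29 HOX genes 1 was detected (HOXC13, 108), of 16 T-box genes 1 (TBX21, 133), and of 6 GATA, 9 PAX and 12 NKX genes none at p below 0.01, a count for which this single array gives no test. HOXA2 was the only HOXA gene with a named probe, so the rest of that cluster was not analysed. Other families were nearer to or above the 51.8% of all named genes: 9 of 19 SOX genes (47.4%), 8 of 16 KLF genes (50%), 19 of 47 forkhead genes (40.4%) and 5 of 6 IRX genes (83.3%) were detected, with SOX3, KLF6 (945) and IRX2 (408) the brightest of the SOX, KLF and IRX genes. Of 8 E2F cell cycle factors 7 were detected, led by E2F5 (832), and MYC read 952 and MYCN 513. FOXD1 read 5229, JUND 7387, TEAD2 2385 and NR2F6 1509, which are transcription factors outside the pluripotency list. Families with little or no known role in these cells give the background of the calls. Of these, 4 of 371 olfactory receptors (1.08%), 3 of 80 keratin-associated proteins (3.75%), 0 of 25 bitter taste receptors and 0 of 13 interferon α genes were detected. The threshold admits 1% of background probes by construction, and a gene with several probes had more than 1 chance to pass. Cytoplasmic ribosomal proteins gave 72 of 75 and proteasome subunits 32 of 35. Among the 20 brightest genes were ACTB (19745), RPLP2 (19424), EEF1A1 (18856), TMSB4X (18181) and FTL (17988), and 8 of the 20 were cytoplasmic ribosomal proteins. Names such as RPL13AP5 and ACTG2 in that range stand for transcripts with near-identical copies and are uncertain.

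Markers of other cell types gave 22 of 59 detected (37.3%, against 51.8% of all named genes). Fibroblast markers gave 6 of 10 detected, with COL1A2 at 1072, S100A4 at 793 and COL1A1 at 684, while DCN, LUM, POSTN and FAP were not. Neuronal markers gave 6 of 10, with TUBB3 at 4153 and STMN2 at 1625, while MAP2, DCX, ELAVL3 and ELAVL4 were not. Cardiac muscle markers gave 4 of 9, with MYL7 at 2108 and NPPB at 665, while MYH6, MYH7, NPPA and ACTN2 were not. Hepatic and yolk sac markers gave 2 of 10 (AFP 405 and ALB 107), squamous and trophoblast markers 3 of 10 (KRT10 902), and blood and endothelial markers 1 of 10 (CDH5, 165). Their detected members ranged over 107 to 4153. Their part in the other values was not tested, and in a bulk sample fewer cells of a type and less RNA per cell cannot be told apart. All 11 named housekeeping genes were detected.

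The untreated calls could be set against the 3 treated arrays. Of the 10377 genes detected on the untreated array, 9325 (89.9%) were detected on all 3 treated arrays and 302 (2.91%) on none of them. The 302 had a median raw intensity of 106 and a highest one of 127, while the 9325 had a median of 269. Of the 9669 genes not detected on the untreated array, 919 (9.50%) were detected on at least 1 treated array. Among the 97 lineage regulators not detected on the untreated array it was 18 (18.6%). These were TBXT, EOMES, MIXL1, SP5, SOX7, HAND1, RUNX1, NFE2, GBX2, DLX1, HES5, SOX9, TFAP2A, MSX2, DLX5, GATA3, CDX2 and CDX1. TBXT, SOX7, NFE2, GBX2, DLX1, HES5, MSX2 and GATA3 were detected on only 1 treated array each. On the untreated array EOMES, DLX1, HES5 and GATA3 were already at the edge, with detection p between 0.017 and 0.019.

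Levels across arrays were compared as log2 normalized intensities. EOMES was at 5.90 with BMP4, 8.40 with CHIR99021, 9.74 with both and 4.87 untreated. SP5, a WNT target gene, was at 4.28, 9.79, 9.45 and 4.25 in the same order, HAND1 at 7.64, 4.33, 7.03 and 4.57, and MIXL1 at 4.84, 6.12, 6.84 and 4.58. TBXT was at 4.29, 4.95, 5.10 and 4.25, and was detected only with both agents. None of these genes was detected in the untreated culture, and EOMES was detected on all 3 treated arrays. All 5 pluripotency markers were detected on all 4 arrays. POU5F1 was at 11.39 with BMP4, 11.55 with CHIR99021, 11.42 with both and 11.51 untreated, and NANOG at 9.92, 9.82, 10.11 and 9.84. SOX2 was at 9.10, 8.25, 8.55 and 9.16, lower by 0.91 with CHIR99021. L1TD1 was between 9.96 and 10.01 on the treated arrays and at 10.42 untreated, and DNMT3B at 10.43, 10.49, 10.08 and 10.35.

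A difference of at least 1 in log2 was used as a rule of size, without a test. It was reached by 32 of 10862 measured genes with BMP4 (0.295%), by 99 of 10749 with CHIR99021 (0.921%) and by 139 of 10825 with both (1.28%). With an offset of 50 in place of 16 the counts were 8, 34 and 62, and with the authors' normalized values plus 16 the BMP4 count was 72. Of the 30 detected pluripotency genes it was reached by 0, 1 and 0, the one being FOXD3 with CHIR99021 (-1.53). Of the 28 detected lineage regulators it was reached by 0, 4 and 2. With CHIR99021 SOX3, SOX15 and FOXD3 were lower and MSX1 higher, and with both agents MSX1 and GRHL3 were higher. Of the 15 detected ligands it was reached by 0, 2 and 4, with WNT7A lower with CHIR99021 and with both, and BMP7 and WNT3 higher with both. Of the 36 detected antagonists and feedback genes it was reached by 2, 6 and 8. BAMBI was higher with BMP4 (by 1.24) and with both (1.01), and SMAD6 likewise (1.48 and 1.59). AXIN2 was higher with CHIR99021 (2.40) and with both (2.30), FST likewise (1.66 and 1.71), and LEFTY1 was lower (-1.37 and -2.12). Of the 50 receptors and transducers it was reached by 0, 0 and 2, namely FGFR3 (1.40) and FZD4 (-1.03) with both agents. NODAL, 1 of the 3 detected ligands of the Activin branch, was at 6.82 with BMP4, 9.27 with CHIR99021, 9.27 with both and 7.11 untreated.

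**Figure D4:**
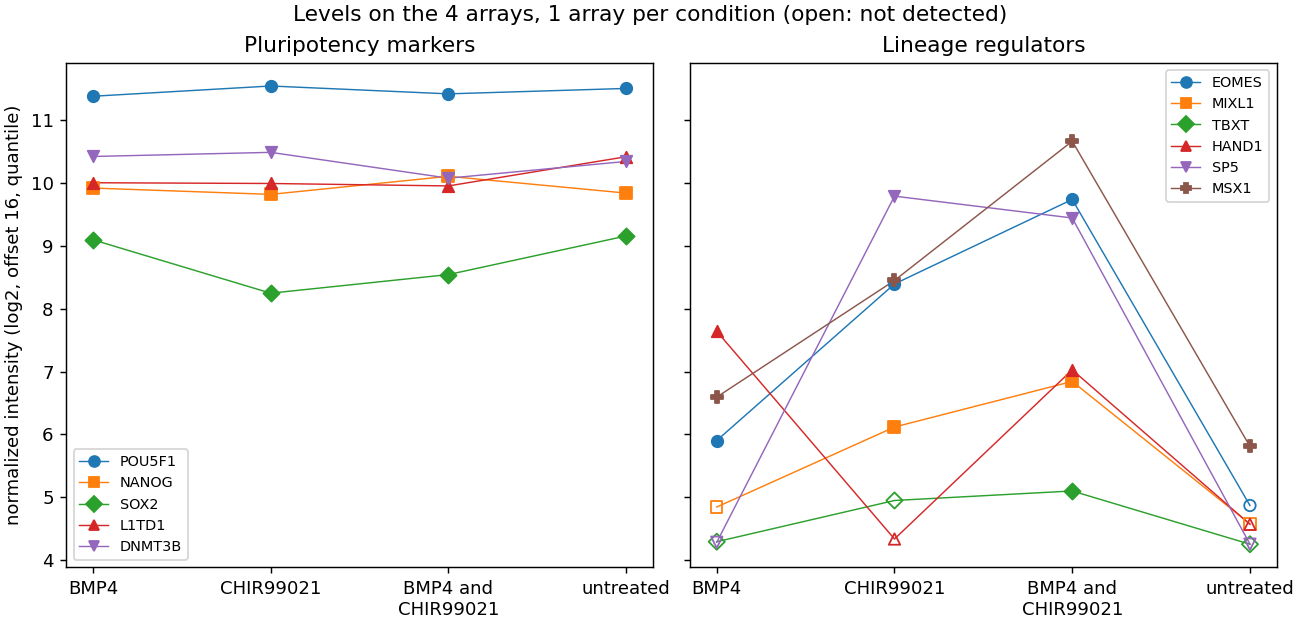
Normalized intensity (log2, y axis) of 5 pluripotency markers (left) and 6 lineage regulators (right) on the 3 treated arrays and the untreated array, 1 array per condition. Filled symbols are detected and open symbols not, and lines only join the values of a gene. POU5F1 stays between 11.39 and 11.55, and EOMES stands at 4.87 in the untreated culture and 9.74 with both agents.

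Promoter CpG content, which the calls did not use, differed between detected and undetected genes. A promoter window was listed for 15034 of the 20046 named genes (75.0%). The observed over expected CpG ratio of the 250 bases before the start had a median of 0.81 (quartiles 0.65 and 0.93) over 8495 detected genes and 0.46 (quartiles 0.20 and 0.77) over 6539 genes not detected. A ratio of at least 0.6 was taken as CpG-rich, which held for 79.8% of detected genes (95% exact interval 78.9 to 80.6) and 39.7% of those not detected (38.5 to 40.9). Within the detected genes the share was 69.3% in the dimmest 25% by intensity and 79.5%, 84.3% and 85.9% in the following bins of equal size. Olfactory receptors not detected had a CpG-rich promoter in 3 of 290 cases (1.03%).

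Lineage regulators that were not detected stood between these values. Their promoters were CpG-rich in 46 of 71 genes (64.8%, interval 52.5 to 75.8), with a median ratio of 0.74, against 39.4% and a median of 0.45 over the other 6468 genes not detected. Single values ran from 0 for DDX4 and 0.083 for GCM1 to 1.11 for EN2 and 1.19 for POU4F1. Among undetected streak regulators MIXL1 had 0.88 and GSC 0.82, and SP5 had 0.49, MESP2 0.265 and MSGN1 0.20. The 15 detected lineage regulators with a window were CpG-rich in 11 cases (73.3%). The detected pluripotency genes with a window were CpG-rich in 10 of 18 (55.6%, interval 30.8 to 78.5), and their ratios ran from 0.13 for DNMT3B and 0.17 for ZSCAN10 to 0.97 for PHC1 and 1.04 for UTF1. Ligand promoters were CpG-rich in 6 of 10 detected (60.0%) and 24 of 41 undetected genes (58.5%). Undetected receptors and transducers were CpG-rich in 16 of 26 cases (61.5%), and undetected antagonists and feedback genes in 11 of 16 (68.8%). Undetected adhesion and matrix genes were in 12 of 31 (38.7%). The share in undetected lineage regulators was thus near that of undetected ligands, receptors and antagonists, and not particular to them. The intervals treat genes as independent, which they are not, and cover counting error only. The lists were short and chosen by hand.

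**Figure D5:**
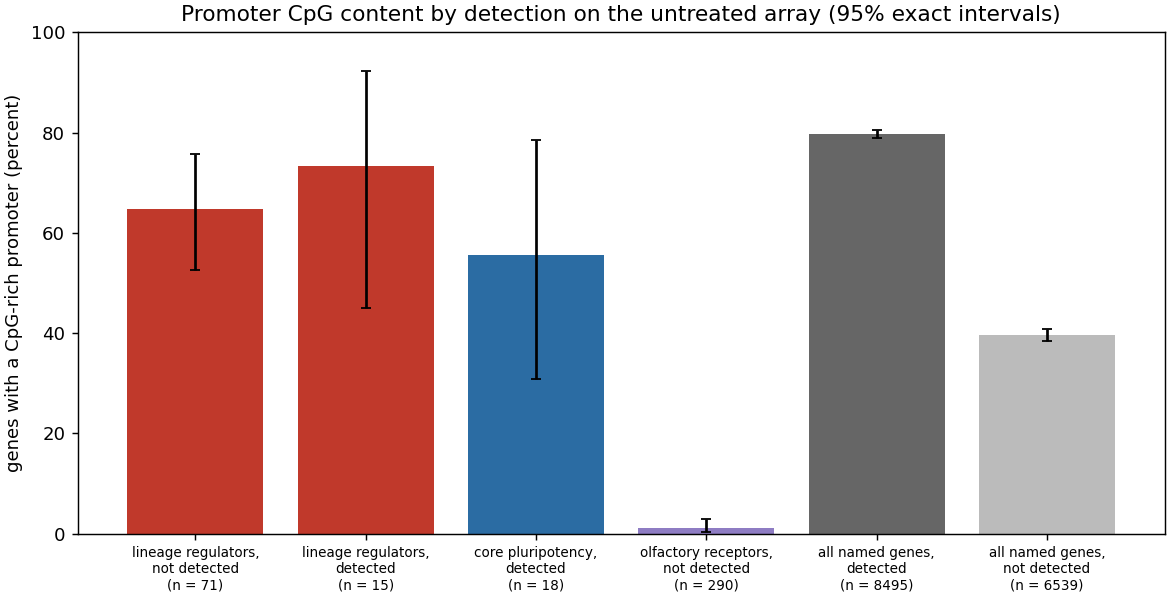
Bars give the percent of genes whose promoter (250 bases before the start) has an observed over expected CpG ratio of at least 0.6, with 95% exact intervals, for gene sets split by detection on the untreated array. Undetected lineage regulators (64.8%) stand above all undetected genes (39.7%) and below all detected genes (79.8%). Undetected receptors (61.5%) and antagonists (68.8%), which are not drawn, lie in the same range.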

How the data were processed

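RNA of 4 HuES6 cultures, 1 per condition, was read on Illumina HumanHT-12 V4 bead arrays of 47321 probes. The authors deposited raw linear intensities with a detection p-value for each probe, in steps of 1/770 of the negative controls, and a table of intensities that they had background-subtracted and normalized by cubic spline in GenomeStudio (version not given in the sources used here). Groups came from the sample labels. Probes were named through the platform annotation, with symbols updated by Entrez identifier to RefSeq (GRCh38.p14): 30112 probes had 1 gene, 8 had several and 17201 were unlisted and stayed unnamed. Hence a gene not named here was not analysed.

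A gene was detected when any named probe had a detection p below 0.01. Its intensity is that of the probe with the highest mean log2 signal over the 4 arrays, which was not always a detected probe. Percentiles count detected genes with a lower intensity. Intensities of different probes give no order of transcript abundance. For comparison between arrays the raw values were background-corrected by normexp on the detection p-values, given an offset of 16, then quantile normalized and log2 transformed in limma 3.58.1 (R 4.3.3). With 1 array per condition differences have no test, and a difference was counted when it reached 1 and the probe was detected on either array. Bead arrays give no read depth: probes above background made up 35.4% of the untreated array and 33.8% to 35.0% of the others, raw medians were 88.7 to 93.6, and the lowest detected and highest undetected probe on the untreated array were both at 103.4. Of 6691 genes with several named probes, 2413 (36.1%) had probes that disagreed in detection. Genes given above without a probe count were among them, such as SMAD5, ACVR1B, AXIN1, ITGA3 and ID1, each detected at only 1 probe.

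Members came from 37 gene lists (599 genes, 570 named) and 48 families chosen by symbol, with earlier results of these data known. Named in the text were the brightest genes, up to 8 bright members of a list, members at the edge of detection, lineage regulators in either state, the 5 markers, and families by count. Transcription factors outside the lists (FOXD1, JUND, NR2F6, KLF6), the keratins and the single promoter ratios were picked after their values were seen. CpG ratios were computed from RefSeq promoter windows, with the median over the windows of a gene. Detection calls, the size rule and the CpG ratio were tested on simulated data. Alternatives were other detection thresholds and probe rules, other scalings and another promoter rule. Python 3.11.15, pandas 2.3.3, scipy 1.17.1 and matplotlib 3.10.9 were used.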

Additional observations from a re-analysis of the deposited data

Results flagged for a closer look

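Probes outside the named set carried signal. Of the 17209 probes without a single gene name, 3371 (19.6%) were detected on the untreated array at p below 0.01, where a threshold of 1% alone would admit about 172, and the brightest read 18353. Among the 30112 named probes 13391 (44.5%) were detected. What the unnamed probes measure was not analysed here. With 1 array in each group, no sample could be set apart from others of its own group.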

How the results depend on the processing

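The count of genes detected, and the counts of the core pluripotency, receptor, antagonist, adhesion and other-cell-type genes, stayed within 1.5 times of the stated values under a threshold of 0.05, a p of 0, the single brightest probe, the demand that every probe be detected and, for the gene groups, detection on all 4 arrays. Lists with dim members moved. Naive factors came to 8 at p below 0.05. Ligands came to 23 at p below 0.05, and to 9 at a p of 0, with every probe detected and on all 4 arrays alike. Lineage regulators came to 43 at p below 0.05, 14 at a p of 0 and 15 on all 4 arrays. Of 35 single lists, 7 moved by more than 1.5 times when every probe had to be detected. Among these, Activin, Nodal and TGF-β receptors came to 1, FGF ligands to 1, Notch genes to 3 and FGF and ERK feedback genes to 5. The median percentile of the 5 markers, 90.6 as stated and with the authors' values, was 95.1 among all named genes and 16.3 when the dimmest detected probe of each gene was taken. With an offset of 50 the size rule gave 8, 34 and 62 genes for BMP4, CHIR99021 and both, and the authors' normalized values plus 16 gave 72 for BMP4; under median scaling the totals stayed within 1.5 times. CpG-rich promoters made up 76.8% of detected and 37.3% of undetected genes at p below 0.05, and 87.1% and 44.9% with the most CpG-rich window of each gene, an alternative chosen after seeing the data. The cause of these shifts was not tested, beyond the rule that a looser threshold admits dimmer probes. No paired analysis was possible because each condition had 1 array. Signal near background limits the calls: genes detected on the untreated array but missing from 1 or more treated arrays read at most 149 on the untreated array, with medians between 106 and 111 by the number of arrays.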
